A study of Rattus norvegicus with 17 samples.

Results

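Macrophages and dendritic cells of the skin were followed through 34 genes whose transcripts mark these cells or serve their work. The genes were chosen by name, through the RefSeq sequence names of the array probes. Of the 34, 33 had a probe with such a name, 37 probes in all, and 32 were bright enough to test, among 11166 named genes that were. Cd207, the lectin of Langerhans cells, had no named probe on the array. Msr1, a scavenger receptor of macrophages, rose clear of background on only 1 exposed and 1 sham array and was not tested.

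The tissue was skin explants of male CD hairless rats, aged 2 to 3 months at the start. Exposed rats received 94 GHz millimetre waves for 3 h on each of 3 days a week for 5.5 months, and sham rats, also unmodified hairless animals, went through the same schedule without the waves. The labels give 9 exposed and 8 sham arrays, each a 1-colour Agilent rat array, while the design text counts 6 exposed and 8 sham animals. More than 1 exposed array may therefore come from the same rat, which would make the p-values below too small. All p-values measure the spread between arrays.

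Dermal macrophages are among the most numerous resident phagocytes of the skin. They take up debris, dying cells and tagged particles through surface receptors, digest them in lysosomes, make C1q, the complement component that tags such targets, and can release oxidants through a NADPH oxidase. Most of them depend on the growth factor receptor Csf1r and on the transcription factor PU.1, the product of Spi1. Monocytes that enter inflamed skin share many of these genes and carry more of the adhesion integrin Itgam/Itgb2. In a bulk extract of skin, fewer cells of a type and less RNA per cell cannot be told apart.

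All values are log2 of the processed signal minus the array's 75th percentile, so that 0 is that percentile and 1 unit is a doubling. The 75th percentile ran from 1077 to 1703 intensity units over the 17 arrays, 66.7% to 70.8% of probes were well above background, and no spot was saturated. A gene with several probes was read from the brightest. The arrays lay on 4 slides of 5, 6, 2 and 4 arrays, and the labels tie no array to an animal. Replicate numbers below are a running order within each group and are not in the labels. The label of skin macrophages was checked against its markers, and 29 of the 34 genes were well above background on all 17 arrays, among them Cd68, Csf1r, Adgre1, Cd163 and the C1q genes, while of 17 dendritic and Langerhans cell genes set beside them 9 were measured, and the dendritic markers Itgax, Zbtb46, Xcr1 and Clec9a were not among those. The 9 that were measured, Cd74, Ccr7 and Batf3 among them, were well above background on all 17 arrays. A gene that was not measured had no named probe or was too dim, which does not show that its cells were absent. Most of the listed genes mark macrophages and monocytes, and the part of dendritic cells in their values was not tested.

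Sham replicates 5 and 6 stood apart before any comparison. On sham replicate 5, 30 of 32 genes lay above their own mean over all arrays, by 0.63 on average, and on sham replicate 6, 26 of 32 did, by 0.55. At the other end, 0 of 32 lay above their mean on sham replicate 2, with an average of -0.57, and 5 of 32 on sham replicate 1, with -0.33. The exposed arrays ran from -0.33 on replicate 9 to 0.29 on replicate 2. Of the 32 genes, 15 had their highest value of all arrays on sham replicate 5 and 9 on sham replicate 6, whereas 14 had their lowest on sham replicate 2 and 10 on sham replicate 1. For the mean of these genes, both extremes were therefore sham arrays, and the exposed arrays lay between them. How many of all probes were so placed on these arrays was not counted, so the counts are not shown to be particular to these genes.

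**Figure D1:**
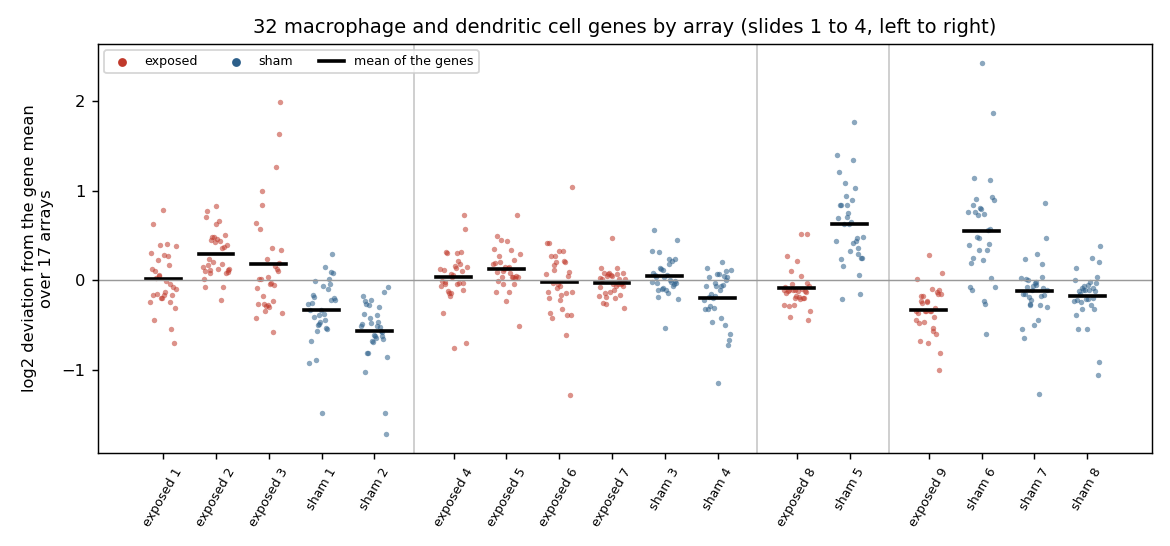
Deviation of each of 32 macrophage and dendritic cell genes from its own mean over 17 arrays, in log2 units, by array; points are genes, black bars the mean of the genes, and grey lines part the 4 slides. Sham replicates 5 (mean 0.63) and 6 (mean 0.55) lie highest and sham replicate 2 (mean -0.57) lowest.

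Chronic exposure was compared with sham to ask whether the genes of skin macrophages were higher or lower after it. None of the 32 genes passed an adjusted p of 0.05 in limma with Benjamini-Hochberg adjustment over 20709 probes, and neither did any other probe, a background of 0%. At an unadjusted p under 0.05 stood 0 of 32, against 943 probes or 4.55% of all. By sign, 22 genes were higher and 10 lower in exposed skin, with a median difference of 0.03 log2 units, against -0.02 over all probes, of which 38.7% were higher. That split was 26 higher and 6 lower under quantile normalization and under median scaling, and 16 and 16 under normexp with the 75th percentile. Of all probes, 44.9%, 46.4% and 30.8% were higher under quantile normalization, median scaling and normexp. The differences ran from -0.19 for Ncf1 to 0.30 for Fcgr3a, and the smallest unadjusted p was 0.321 and the smallest adjusted p 0.983. The 95% interval of the difference stayed within 1.5-fold either way for 26 genes and within 2-fold for 29, and it was wider for Fcgr3a, Trem2 and Lilrb4.

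**Figure D2:**
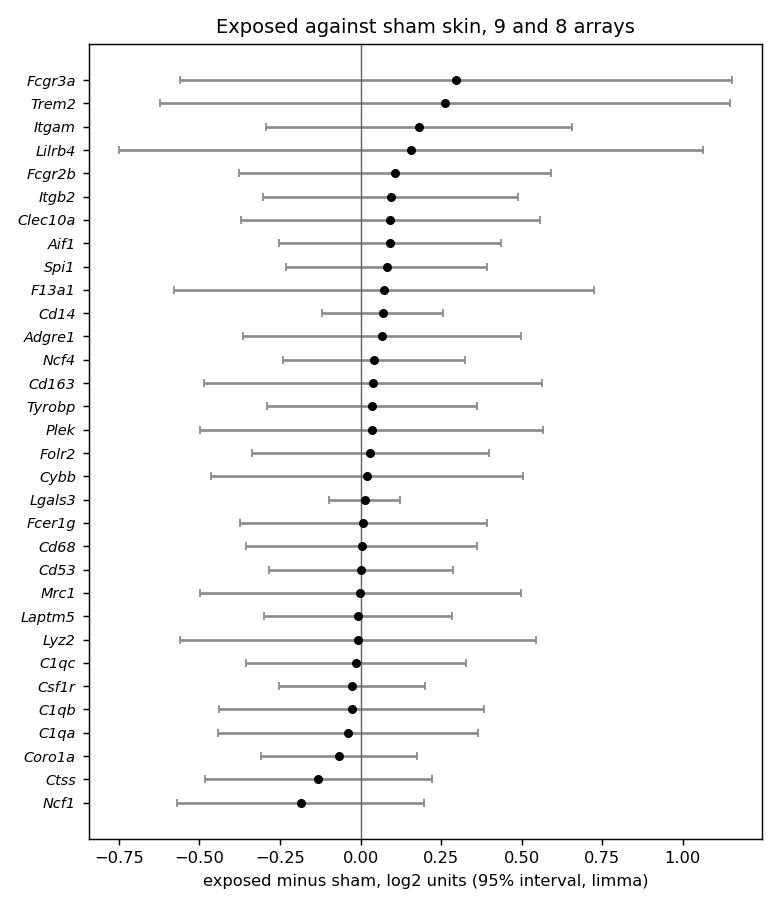
Difference between exposed and sham skin for 32 genes, in log2 units, with its 95% interval from limma, over 9 exposed and 8 sham arrays. Every interval spans 0, and the widest belong to Fcgr3a, Trem2 and Lilrb4.

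Of the 7 genes of macrophage and monocyte identity, 5 were higher and 2 lower, between -0.03 and 0.09, against 4 and 3 under normexp and 6 and 1 under quantile normalization. Csf1r, the receptor that keeps macrophages alive, had values of -2.16, -2.10 and -1.84 (lowest, median and highest) on the exposed arrays and -2.37, -2.10 and -1.33 on the sham arrays. Its mean was -2.04 ± 0.11 in exposed skin (n = 9, SD) and -2.02 ± 0.31 in sham skin (n = 8), a difference of -0.03 (limma 95% interval -0.25 to 0.20, adjusted p = 0.989). The exposed values all lay inside the sham range. A second Csf1r probe gave 0.17 (limma unadjusted p = 0.108) and followed the first over arrays with r = 0.42, so the probes of this gene disagree on the sign. All further Csf1r values and correlations below come from the first, brighter probe alone.

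Cd14, the co-receptor for bacterial lipopolysaccharide, ran from -0.74 over a median of -0.55 to -0.29 on the exposed arrays, and from -0.98 over -0.57 to -0.31 on the sham arrays. The difference was 0.07 (-0.12 to 0.26, limma adjusted p = 0.983), and 6 of 9 exposed values exceeded the mean of sham skin. Lyz2, lysozyme of phagocytes, averaged 3.87 ± 0.50 in exposed skin (n = 9, SD) and 3.88 ± 0.64 in sham skin (n = 8). For Cd68, a lysosomal protein of macrophages, the means were 0.22 ± 0.32 and 0.21 ± 0.41 in exposed and sham skin. The other 3, Aif1, Adgre1 and Spi1, differed by 0.09, 0.07 and 0.08. Aif1, an actin-binding protein of macrophages, had a second probe at -0.04.

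Among the receptors of resident dermal macrophages, 4 of 5 tested genes were higher and 1 lower, all by less than 0.10, against 3 and 2 under normexp and 5 and 0 under quantile normalization. Cd163, which takes up haemoglobin bound to haptoglobin, had -2.38, -1.95 and -1.55 (lowest, median and highest) on the exposed arrays and -2.89, -2.12 and -0.56 on the sham arrays. Its difference was 0.04 (-0.49 to 0.56, limma adjusted p = 0.994). The lowest and the highest Cd163 value were both sham, on replicates 1 and 5.

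F13a1, the A subunit of coagulation factor XIII, which dermal macrophages hold, had -4.14, -3.36 and -3.05 on the exposed arrays and -4.84, -3.63 and -1.80 on the sham arrays. It averaged -3.53 ± 0.39 in exposed skin (n = 9, SD) and -3.61 ± 0.90 in sham skin (n = 8), a difference of 0.07 (-0.58 to 0.72, limma adjusted p = 0.991). The spread in sham skin came from both ends, with sham replicate 5 highest and sham replicate 7 lowest. This sign turned to -0.08 with slide as a block.

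Mrc1, the mannose receptor, was well above background on 9 of 9 exposed but 4 of 8 sham arrays. Its measured values were -5.85, -5.61 and -4.85 (lowest, median and highest) on the exposed arrays and -6.16, -5.60 and -4.27 on the sham arrays. Values of both groups lay near the floor of the scan. Exposed replicates 4 and 9, counted as above background, had -5.85 each, and sham replicates 2 and 8, not so counted, -5.85 and -5.87. The means were -5.48 ± 0.35 and -5.48 ± 0.66 in exposed and sham skin. The count of arrays above background thus differed, while the measured means did not differ beyond the spread. Clec10a, a galactose-binding lectin, and Folr2, a folate receptor of resident macrophages, differed by 0.09 and 0.03.

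Msr1 reached above background on exposed replicate 3, at -6.12, and on sham replicate 6, at -4.56. On the other 15 arrays it was not well above background.

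All 3 chains of C1q were lower by sign, by at most 0.04, while under quantile normalization and median scaling 1 was higher and 2 lower. C1qa had 0.67, 1.17 and 1.59 (lowest, median and highest) on the exposed arrays and 0.57, 1.00 and 2.22 on the sham arrays, a difference of -0.04 (-0.44 to 0.36, limma adjusted p = 0.991). C1qb differed by -0.03 and C1qc by -0.01. The exposed values of C1qa all lay inside the sham range.

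All 6 Fc receptors and signalling partners were higher by sign, by 0.01 to 0.30, with 4 higher and 2 lower under normexp, and none passed the test. Fcgr3a, the activating low-affinity receptor for IgG, had -6.12, -5.08 and -4.53 on the exposed arrays and -6.84, -5.73 and -2.93 on the sham arrays. It averaged -5.22 ± 0.48 in exposed skin (n = 9, SD) and -5.52 ± 1.20 in sham skin (n = 8), a difference of 0.30 (-0.56 to 1.15, limma adjusted p = 0.983). Sham replicate 6 was far above all other arrays, 1 of the 8 sham arrays was not above background, and 6 of 9 exposed values exceeded the sham mean. Without sham replicates 5 and 6 the Fcgr3a difference was 0.81 (0.27 to 1.34, unadjusted p = 0.00576, limma adjusted p = 0.935). These arrays were left out because the genes were high on them, which raises the difference by construction.

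Trem2, the lipid-sensing receptor of macrophages, ran from -2.64 over a median of -0.96 to 0.28 on the exposed arrays and from -2.84 over -1.32 to -0.43 on the sham arrays. Its difference was 0.26 (-0.62 to 1.15, limma adjusted p = 0.983). Both groups were spread over more than 2 log2 units, with exposed replicate 3 highest and sham replicate 2 lowest of all arrays.

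Lilrb4, an inhibitory receptor of myeloid cells, had -5.12, -4.37 and -2.32 on the exposed arrays and -6.03, -4.28 and -2.44 on the sham arrays, with 1 sham array not above background. It differed by 0.16 (-0.75 to 1.06, limma adjusted p = 0.988), and the sign turned when exposed replicate 3 or sham replicate 2 was left out, to -0.08 in each case. Exposed replicate 3 and sham replicate 6 stood above the rest in their groups.

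Tyrobp, the adaptor that carries the signal of Trem2, averaged 1.83 ± 0.23 in exposed skin (n = 9, SD) and 1.80 ± 0.42 in sham skin (n = 8). Fcer1g, the common gamma chain of activating Fc receptors, differed by 0.01 on one probe and by 0.02 on the other. Fcgr2b, the inhibitory IgG receptor, differed by 0.11 and 0.04 on its 2 probes.

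Of the adhesion and oxidase genes, Itgam, the alpha M integrin chain of monocytes and neutrophils, had -4.97, -4.53 and -3.55 on the exposed arrays and -5.37, -4.74 and -3.41 on the sham arrays. It differed by 0.18 (-0.29 to 0.66, limma adjusted p = 0.983), and its partner chain Itgb2 by 0.09. With normexp in place of the scanner software's background correction, the Itgam difference was -0.0035.

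Ncf1, the organiser subunit p47phox of the NADPH oxidase, showed the largest lower value. It had -1.22, -0.80 and -0.30 on the exposed arrays and -1.30, -0.68 and 0.45 on the sham arrays, a difference of -0.19 (-0.57 to 0.20, unadjusted p = 0.321, limma adjusted p = 0.983). Of the exposed values 3 of 9 exceeded the sham mean, and sham replicate 6 held the highest value. Without sham replicates 5 and 6 it was 0.03. Cybb, the catalytic subunit, and Ncf4, p40phox, differed by 0.02 and 0.04.

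Ctss, the cysteine protease cathepsin S of antigen processing, had -0.24, -0.01 and 0.25 on the exposed arrays and -0.41, 0.04 and 0.99 on the sham arrays. It differed by -0.13 (-0.48 to 0.22, limma adjusted p = 0.983), and by 0.12 without sham replicates 5 and 6. The 2 sham arrays above all exposed values were replicates 5 and 6. Lgals3, the carbohydrate-binding galectin-3, varied least. It had 6.18, 6.26 and 6.47 on the exposed arrays and 6.13, 6.32 and 6.38 on the sham arrays, a difference of 0.01 (-0.10 to 0.12, limma adjusted p = 0.989). Galectin-3 is also made by keratinocytes. Laptm5, a lysosomal membrane protein of leukocytes, differed by -0.01.

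Coro1a, an actin regulator of leukocytes, had 0.74, 1.12 and 1.39 on the exposed arrays and 0.88, 1.02 and 1.59 on the sham arrays, a difference of -0.07 (-0.31 to 0.18, limma adjusted p = 0.985). Its groups overlapped. Cd53, a tetraspanin of leukocytes, differed by 0.00 and Plek, the protein kinase C substrate pleckstrin, by 0.03.

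**Figure D3:**
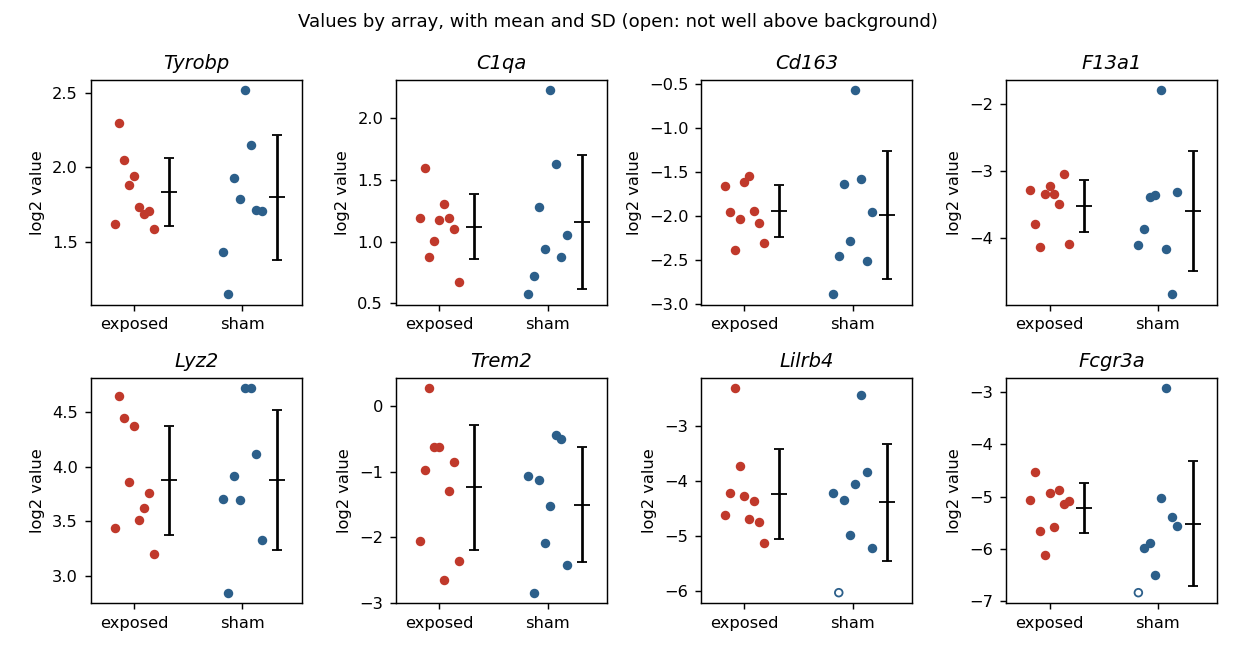
Log2 values of 8 of the genes on each array relative to the array's 75th percentile, exposed left and sham right, with the mean and SD of each group. The groups overlap in all 8 panels, and in Cd163, F13a1 and Fcgr3a a single sham array lies far above the rest.

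The macrophage genes differed between arrays more than most probes did. The median SD over the 17 arrays was 0.40 for the 32 genes and 0.19 for all kept probes, and 30 of the 32 lay above the latter. Lilrb4 (SD 0.91), Trem2 (0.90), Fcgr3a (0.87) and F13a1 (0.65) varied most, and Lgals3 (0.09) and Cd14 (0.18) least. Within groups, the median SD was 0.29 on the exposed and 0.50 on the sham arrays. The sham SD was the greater for 28 of 32 genes, or 87.5%, against 56.5% of all kept probes. Without sham replicates 5 and 6 it was so for 16 of 32 genes, with a median sham SD of 0.26, against 44.0% of all kept probes. These arrays were left out because the genes were extreme on them, which lowers the sham SD by construction, and no test was run on this spread.

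Within single slides the signs of the group difference were as follows, with a test of the difference between slides given after them. On slide 1, with 3 exposed and 2 sham arrays, all 32 genes were higher in exposed skin by a median of 0.59, where 47.7% of all probes were higher. There 11 genes had an unadjusted p under 0.05, against 2.62% of probes, and the smallest adjusted p in limma was 1.00. Folr2 differed by 0.64 on that slide (0.31 to 0.96, unadjusted p = 0.00352), Tyrobp by 0.70 and Fcer1g by 0.67. On slide 2, with 4 exposed and 2 sham arrays, 23 were higher and 9 lower, with a median of 0.09, where 40.4% of all probes were higher.

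On slide 3, which held 1 array of each group and allows no test, 31 of 32 genes were lower in the exposed array, with a median of -0.74, where 46.4% of all probes were higher and their median was -0.02. Trem2 was higher there by 0.67. On slide 4, with 1 exposed and 3 sham arrays, 29 were lower, with a median of -0.41, where 41.9% of all probes were higher. Sham replicates 1 and 2, which lay low, were the sham arrays of slide 1, and sham replicates 5 and 6, which lay high, were on slides 3 and 4. Slide as a block left 19 genes higher and 13 lower, with a median of 0.02 and 0 of 32 past the adjusted threshold.

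A test of whether the exposure difference varied between slides called 3 of 20705 probes, or 0.0145%, and 0 of 32 genes at an adjusted p of 0.05. At an unadjusted p under 0.05 it held 12 of 32 genes, against 4.35% of probes, with Folr2 (unadjusted p = 0.000373, limma adjusted p = 0.454) and Clec10a (0.00161 and 0.662) lowest. This test of varying exposure difference was added after the data were seen. The genes moved together over the arrays, as given below, so the 12 are not independent, and their excess over 4.35% was not tested. Between slides as such, 0 of 32 genes and 0% of probes passed the adjusted threshold, and 3 of 32, against 8.90% of probes, had an unadjusted p under 0.05. These were F13a1 (limma adjusted p = 0.330), Clec10a (limma adjusted p = 0.483) and Aif1 (limma adjusted p = 0.503).

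Leaving out sham replicates 5 and 6, a choice made after their values were seen, gave 31 genes higher and 1 lower, with a median of 0.23, where 39.5% of all probes were higher. The genes were highest on these arrays, so leaving them out raises the difference by construction, and the counts that follow are no support for one. No run left out both low sham arrays together. At an unadjusted p under 0.05 stood 4 of 32 genes, Fcgr3a, Folr2 (0.26), Fcer1g (0.27) and Adgre1 (0.33), against 4.47% of probes. None passed the adjusted threshold, and the smallest adjusted p was 0.935. Leaving out sham replicates 1 or 2 alone, the low arrays, gave 15 and 10 genes higher of 32, where 37.5% and 38.9% of all probes were higher. Leaving out single exposed arrays moved the split as well, to 17 higher without exposed replicate 2, 26 without exposed replicate 8 and 28 without exposed replicate 9.

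The macrophage genes moved together over the arrays. Over their 496 pairs the median Pearson r was 0.52, 473 pairs had an r above 0, and 53.4% reached 0.5. Over all pairs of 11161 genes with values on every array the median r was 0.01 and 6.42% reached 0.5. The median was 0.44 without sham replicates 5 and 6, 0.52 with values centred within exposure group and 0.56 with values centred within slide. Genes measured on the same arrays share each array's scaling, so these are descriptions of the arrays and not of separate samples for each pair.

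Closest to the mean of all other members were Fcer1g (r = 0.95), Tyrobp (0.93), Ctss (0.93) and Cd53 (0.92), and farthest Coro1a (0.25) and F13a1 (0.32). Outside the list, Fcgr1a, the high-affinity receptor for IgG, had an r of 0.97 with the mean of the 32 genes over 17 arrays, the highest of all other named genes. It averaged -0.44 ± 0.29 in exposed skin (n = 9, SD) and -0.51 ± 0.58 in sham skin (n = 8). It was followed by C5ar1 (0.93), the C5a receptor, Clec4a1 (0.92), Cyba (0.90), the membrane subunit of the NADPH oxidase, and P2ry6 (0.90). Igsf7 l1, Myo1f, Fcgr2al1, Clec4a3 and Csf2ra, the receptor for GM-CSF, had an r of 0.88 to 0.90.

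Pairs of genes whose proteins form a complex or mark the same cells were tested over the 17 arrays. Of 24 pairs listed, 22 could be measured, since 2 involved Cd207, and 15 passed an adjusted p of 0.05 for Pearson's r by a two-sided permutation test with 100000 resamples, adjusted over the 22 pairs. C1qa and C1qb, chains of the same molecule, had r = 0.97 and Spearman's rho = 0.99 (adjusted permutation p = 2.75e-05, which comes from the smallest p these resamples can give), and each was the other's closest gene of 11160. C1qc followed C1qa with r = 0.92 (rho = 0.91) and C1qb with r = 0.92 (rho = 0.89). The genes C1qb, C1qc and C1qa are neighbours in that order on chromosome 5 of the RefSeq annotation.

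The integrin chains Itgam and Itgb2 had r = 0.92 (rho = 0.74, adjusted permutation p = 4.89e-05), and the adaptors Tyrobp and Fcer1g r = 0.92 (rho = 0.85). Fcer1g followed its receptor partner Fcgr3a with r = 0.70 (rho = 0.61), which fell to 0.54 without the 2 arrays farthest from the median and then no longer passed (adjusted permutation p = 0.0545). Among the resident receptors, Cd163 followed Folr2 with r = 0.92, Mrc1 with 0.88 and F13a1 with 0.77. Mrc1 followed Clec10a with 0.88 and Folr2 with 0.86. The values of Mrc1 lay near the floor of the scan. Under normexp with the 75th percentile its r was 0.69 with Cd163, 0.69 with Clec10a and 0.74 with Folr2, and these pairs still passed. The leukocyte genes Laptm5 and Cd53 had r = 0.88, Ncf1 and Ncf4 0.84, Cd68 and Ctss 0.81, and Csf1r and Adgre1 0.57. By Spearman's rho 16 pairs passed, without Csf1r and Adgre1 (rho = 0.49, adjusted permutation p = 0.0649).

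Without the 2 farthest arrays Cd163 with F13a1 (r = 0.53) and Csf1r with Adgre1 (r = 0.26) were also lost, while Cybb with Ncf1 (0.60) and with Ncf4 (0.57) passed, for 14 pairs in all. With values centred within slide 14 pairs passed, and within slide 2, the only slide with 6 arrays, which allow few permutations, 1 did, C1qa with C1qb (r = 0.97, exact permutation p adjusted to 0.0306).

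In 7 pairs the test of Pearson's r was not passed over all arrays, and in 2 of them that of rho was. Trem2 and its adaptor Tyrobp had r = 0.49 (adjusted permutation p = 0.0578) and rho = 0.52 (adjusted permutation p = 0.0446). The catalytic oxidase subunit Cybb had r = 0.52 with Ncf1 (adjusted permutation p = 0.0520) and rho = 0.72 (adjusted permutation p = 0.00272), and with Ncf4 r = 0.44 (adjusted permutation p = 0.0930). Lyz2 with Lgals3 had 0.48, Cd14 with Itgam 0.37, Csf1r with Spi1, whose product controls its gene, 0.23, and Coro1a with Plek -0.20. A p above the threshold does not show that these genes varied independently.

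The plot of correlations between the genes held 2 blocks joined by a middle, which are described here without a test, since they were read from these values. One block followed Cd163. With it went Folr2 (r = 0.92), C1qa (0.91), C1qc (0.90), Mrc1 (0.88), C1qb (0.87), Clec10a (0.85), Csf1r (0.84), Adgre1 (0.81) and F13a1 (0.77), and their r with Trem2 ran from -0.24 for F13a1 to 0.23 for Adgre1. The other followed Trem2, with Cybb (r = 0.86), Lilrb4 (0.85), Itgam (0.76), Lyz2 (0.76), Itgb2 (0.74) and Cd68 (0.67). The r of these genes with Cd163 ran from 0.09 for Itgam to 0.21 for Itgb2, but was 0.43 for Lyz2 and 0.46 for Cd68. Cd14 (r = 0.73 with Cd163 and 0.13 with Trem2) and Fcgr2b (0.66 and 0.12) also lay nearer to Cd163, so the blocks have no sharp edge. Cd163 and Trem2 themselves had an r of -0.06. Csf1r was placed by its brighter probe alone, and the values of Mrc1 lay near the floor of the scan. Between the blocks, Tyrobp, Fcer1g, Ctss, Cd53 and Laptm5 had an r of 0.54 to 0.76 with Cd163 and of 0.41 to 0.56 with Trem2.

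**Figure D4:**
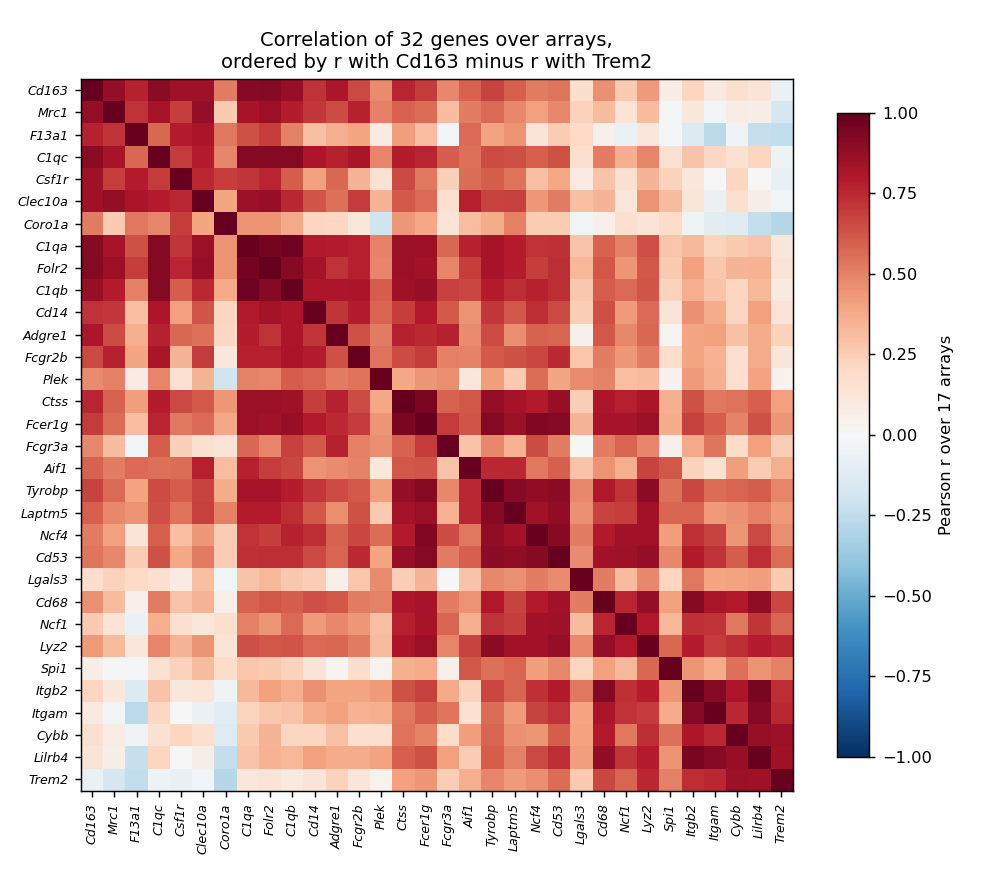
Pearson r over 17 arrays between 32 genes, ordered by their r with Cd163 minus their r with Trem2, from blue (-1) to red (1). Genes of resident macrophages fill the upper left, and Itgb2, Itgam, Cybb, Lilrb4 and Trem2 the lower right.

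The arrays that stood apart did so to different degrees in different genes. The mean of the resident receptor genes (Cd163, Mrc1, Clec10a, Folr2 and F13a1) was 1.35 above its average on sham replicate 5 and 0.01 on sham replicate 6. The mean of Itgam and Itgb2 was -0.03 on sham replicate 5, 0.95 on sham replicate 6 and 0.92 on exposed replicate 3, where the resident receptors lay at -0.31. The C1q chains were high on both, at 0.95 on sham replicate 5 and 0.56 on sham replicate 6. The division did not follow the blocks throughout, since Adgre1, which followed Cd163, had its highest value on sham replicate 6 (-2.38). On sham replicate 5 Adgre1 was at -2.67. Lyz2, which followed Trem2, was as high on sham replicate 5 as on sham replicate 6, at 4.72 on each. Sham replicate 6 also had the highest mean of the 6 measured cytokine and activation genes, which include Nos2 and Il1b, at 1.75 against 0.43 on exposed replicate 3, the next array.

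Promoters of members in both blocks and in the middle were read from RefSeq (assembly GRCr8, 250 bases before to 50 after the start), since these genes moved together and PU.1 is known to act on many myeloid genes. A promoter was found for 22 of the 34 genes. The letters GAGGAA, the core that PU.1 and related ETS factors bind, were searched on both strands, and GAGGAAGT, a longer form that contains it, likewise. The core was in 17 of 22 promoters, or 77.3%, and in 27.6% of all 33469 promoters of that table, and the longer form in 4 of 22, or 18.2%, and in 2.42% of all. The 4 were Ctss, Cd53, Fcgr3a and F13a1. Cd207, which had no named probe on the array, was among the 17 with the core. For each member gene the first listed promoter was read, while the shares of all promoters count every listed one. The 5 without the core were C1qa, Cd163, Folr2, Ncf1 and Coro1a. A match of letters is a description and not a site in use, and no match says only that these letters are not in this window.

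Shown are the promoters of Ctss and Cd53 from the middle, F13a1 and C1qb from the Cd163 block, and Trem2 and Cybb from the Trem2 block, each 5′ to 3′ in the direction of its gene, with the core on either strand in capitals (TTCCTC is the core read on the opposite strand).
Ctss, chr2:185775146-185775445, plus strand: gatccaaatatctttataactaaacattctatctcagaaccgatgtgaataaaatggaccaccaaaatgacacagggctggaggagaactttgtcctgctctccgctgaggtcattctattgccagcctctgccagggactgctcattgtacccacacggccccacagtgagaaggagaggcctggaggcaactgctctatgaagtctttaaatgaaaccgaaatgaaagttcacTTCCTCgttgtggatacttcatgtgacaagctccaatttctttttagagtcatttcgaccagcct
Cd53, chr2:197087847-197088146, minus strand: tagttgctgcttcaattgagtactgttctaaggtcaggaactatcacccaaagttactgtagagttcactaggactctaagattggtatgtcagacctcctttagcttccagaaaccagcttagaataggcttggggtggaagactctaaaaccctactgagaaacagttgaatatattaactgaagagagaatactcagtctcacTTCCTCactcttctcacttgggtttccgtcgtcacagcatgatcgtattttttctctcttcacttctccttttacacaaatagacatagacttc
F13a1, chr17:28020947-28021246, plus strand: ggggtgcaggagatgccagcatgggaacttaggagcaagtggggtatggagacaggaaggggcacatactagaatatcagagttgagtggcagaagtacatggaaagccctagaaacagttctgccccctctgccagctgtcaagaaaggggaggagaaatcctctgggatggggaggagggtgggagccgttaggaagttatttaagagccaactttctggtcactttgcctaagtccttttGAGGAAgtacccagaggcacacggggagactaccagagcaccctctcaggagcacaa
C1qb, chr5:154407778-154408077, minus strand: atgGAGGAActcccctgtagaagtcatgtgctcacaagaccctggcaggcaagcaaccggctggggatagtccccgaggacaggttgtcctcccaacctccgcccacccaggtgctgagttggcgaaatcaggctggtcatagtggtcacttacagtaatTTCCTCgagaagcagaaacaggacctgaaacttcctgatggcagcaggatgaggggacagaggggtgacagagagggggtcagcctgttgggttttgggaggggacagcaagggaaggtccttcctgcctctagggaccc
Trem2, chr9:20151730-20152029, minus strand: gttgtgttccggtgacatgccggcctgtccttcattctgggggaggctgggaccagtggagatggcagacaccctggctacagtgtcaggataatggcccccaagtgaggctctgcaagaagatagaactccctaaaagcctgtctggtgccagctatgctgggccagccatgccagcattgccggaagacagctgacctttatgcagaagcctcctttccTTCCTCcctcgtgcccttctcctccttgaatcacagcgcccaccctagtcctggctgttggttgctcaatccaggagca
Cybb, chrX:16065016-16065315, minus strand: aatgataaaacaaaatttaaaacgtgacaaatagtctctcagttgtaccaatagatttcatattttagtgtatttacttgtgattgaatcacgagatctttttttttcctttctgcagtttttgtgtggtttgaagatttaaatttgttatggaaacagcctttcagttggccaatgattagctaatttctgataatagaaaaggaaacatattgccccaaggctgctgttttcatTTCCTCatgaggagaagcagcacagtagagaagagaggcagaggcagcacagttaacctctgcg
Counted from the start of the gene at 0, the first base of the core lay at -15 in Ctss, -44 in Cd53, -7 in F13a1, -29 in Trem2 and -14 in Cybb, and at -247 and -90 in C1qb. These letters thus occurred in members of both blocks and of the middle, but only promoters that hold them are shown. In the Cd163 block, Csf1r, Mrc1, Adgre1, C1qb and F13a1 held them, and Cd163, Folr2 and C1qa lacked them in this window. C1qc and Clec10a had no promoter to read. In the Trem2 block, Trem2, Cybb, Lilrb4, Itgam, Lyz2 and Cd68 all held them, and Itgb2 had no promoter to read.

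Because explants differ in the tissues they hold, the genes were set beside marker scores of 10 other cell types, each the mean over its markers of the deviation from the gene's mean. In the largest of these, genes of skeletal muscle, the arrays ran from -3.12 to 5.36 log2 units, and hair follicle genes ran from -5.99 on sham replicate 5 to 1.98. Correlations were adjusted over 111610 pairs of 11161 genes and 10 scores. The score of dermal matrix (9 of 10 markers measured, Col1a1 among them) rose with 5 of the 32 genes at an adjusted p under 0.05, against 290 of 11161 genes or 2.60%. These were F13a1 (r = 0.90, rho = 0.84, adjusted permutation p = 0.00306), Clec10a (r = 0.89, rho = 0.75, 0.00639), Csf1r (r = 0.88, rho = 0.75, 0.0100), Cd163 (r = 0.81, rho = 0.62, 0.0334) and Mrc1 (r = 0.76, rho = 0.60, 0.0430). All belong to the Cd163 block, where Folr2 came next (r = 0.78, adjusted permutation p = 0.0535). The values of Mrc1 lay near the floor of the scan, and those of Csf1r come from the brighter Csf1r probe. Its second probe, which followed the first with r = 0.42, was not set against the scores. Trem2 (r = -0.05), Lilrb4 (-0.07), Itgb2 (0.00) and Itgam (-0.15) did not pass.

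Sham replicate 5 had a dermal matrix score of 1.22, far above the next array at 0.35. Without that array 1 of the 5 passed, F13a1 (r = 0.80, adjusted permutation p = 0.0262), and r was 0.76 for Clec10a, 0.71 for Csf1r, 0.62 for Cd163 and 0.56 for Mrc1. Over all 11161 genes the calls with this score, of either sign, fell to 103 without that array, against 336 with it. Without the 2 arrays farthest from the median none of the 5 passed, with F13a1 at 0.80 and Clec10a at 0.74, and 49 of all genes did. With values centred within slide only Csf1r passed (r = 0.91), with 33 of all genes. Within slide 2, r was 0.79 for Csf1r and 0.46 for F13a1, and 0 of all 11161 genes passed, since 6 arrays allow few permutations and the adjustment runs over 111610 tests. Slide 2 therefore says nothing about how stable the relation is. That array also had the lowest hair follicle score, and the part of the explant's tissue makeup in these values was not tested.

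**Figure D5:**
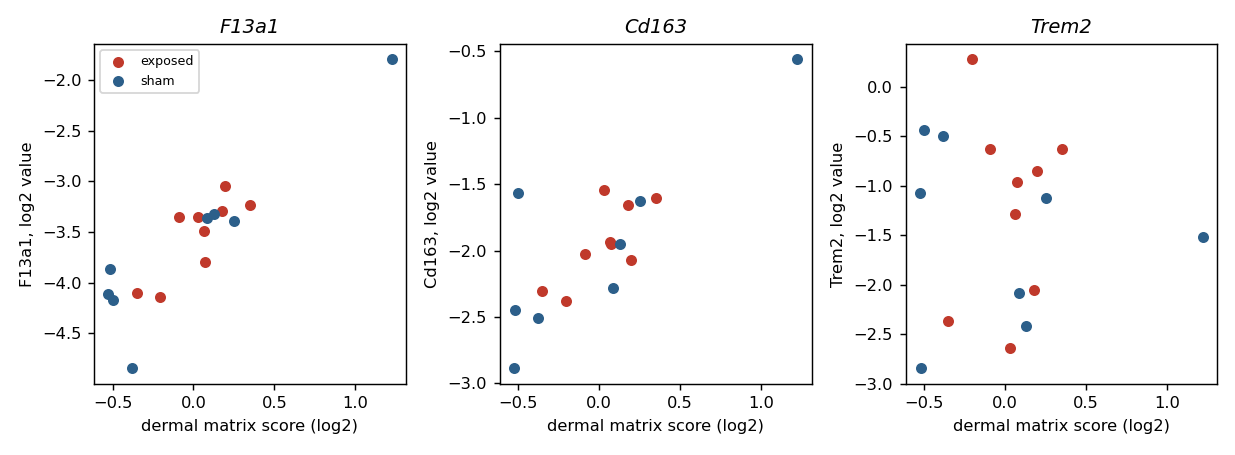
Log2 values of F13a1, Cd163 and Trem2 on each of 17 arrays against the array's dermal matrix score in log2 units, exposed red and sham blue. F13a1 rises with the score, and sham replicate 5 at a score of 1.22 stands apart in all 3 panels.

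F13a1 also rose with the mast cell score (r = 0.74, rho = 0.625, adjusted permutation p = 0.0293), the only 1 of 32 genes to do so, against 0.654% of genes. Without sham replicate 5 this did not pass (r = 0.68, adjusted permutation p = 0.120). With the other 8 scores none of the 32 genes passed, against 0.125% (T cell) to 2.32% (hair follicle) of all genes in the positive direction and at most 1.496% (red blood cell) in the negative. The median r over the 32 genes was -0.43 with the hair follicle score, where 15 had an unadjusted p under 0.05 against 22.2% of genes, and 0.25 with neutrophil, 0.28 with T cell and 0.26 with mast cell markers. It was 0.17 with skeletal muscle, 0.15 with basal keratinocyte, 0.08 with endothelium, 0.03 with adipocyte and 0.00 with red blood cell markers. The endothelium median covers a split by block. There r ran from 0.28 for Cd68 to 0.64 for Trem2 in the Trem2 block. In the Cd163 block it ran from -0.51 for F13a1 to -0.14 for C1qb. This split was not tested. Neutrophils share Itgam, Itgb2 and the oxidase genes with macrophages. The neutrophil score held 4 of 10 markers, S100a8, S100a9, Camp and Cxcr2, while Mpo, Elane, Ltf and others were not measured. With this score r was -0.14 for Itgam and for Itgb2, -0.46 for Cybb, 0.11 for Ncf1 and 0.41 for Ncf4. Over all 32 genes r ran from -0.46 for Cybb to 0.53 for Mrc1. The part of neutrophils in these values was not tested.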

How the data were processed

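Per the file headers, the authors scanned 1-colour arrays with Agilent Feature Extraction 10.7.3.1 (protocol GE1_107_Sep09), and the deposited processed signal is a background-subtracted intensity, not scaled between arrays. The authors' value table of the series, in log2 units with its scaling not given in the sources used here, served as an alternative. Each array's scanner flags, a score per spot in the deposited files, were used to drop non-uniform and outlier spots. From these, log2 of the signal minus the array's 75th percentile over 62976 spots less controls was taken, spots were averaged into 30367 probes, and 20709 that were well above background on at least 8 arrays were kept. Names came from a rat RefSeq table of assembly GRCr8. Exposure was tested through limma 3.58.1 under R 4.3.3, and correlations by permutation in numpy 2.4.6. Both were tested on simulated data.

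The members, lists and tests were chosen with earlier results of these data known. Named in full were the 3 genes with the smallest p in each direction, the 4 with the largest and 2 with the smallest SD, and those above background on some arrays only. Named beside them were the 2 genes of smallest p in each further list and the 10 closest to the members' mean. Genes so named in marker lists of other tissues are given through their list scores. Tissue correlations were adjusted over all genes and scores, more widely than first planned. The array's number limits the precision. Alternatives were other scalings, normexp with an offset of 50 on median signals, other filters, slide, array weights, the value table and leaving out arrays.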

Additional observations from a re-analysis of the deposited data

Results flagged for a closer look

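In 9 of 64 combinations of a gene and a group, a single array lay far from the rest of its group by Dixon's criterion. For a single combination, chance alone meets it in about 1 in 20. The genes moved together over the arrays, so the 64 are not independent. The share of all probes that meets the criterion was not counted, so the 9 are a description of these arrays. Csf1r (-1.33), Aif1 (1.67) and Clec10a (0.87) were so high on sham replicate 5, where the next sham values were -1.89, 0.89 and -0.23. Itgam (-3.41) and Fcgr3a (-2.93) were so on sham replicate 6, with next sham values of -4.62 and -5.04. Among exposed arrays, Cybb (-4.05) and Lilrb4 (-2.32) were high on replicate 3, with next values of -5.00 and -3.74, and Ncf4 (-0.83) on replicate 2, with -1.22 next. Folr2 was low on exposed replicate 9, at -0.40 with -0.08 next. Sham replicate 5 had a dermal matrix score of 1.22, sham replicate 6 one of -0.50 and exposed replicate 3 one of -0.21, and the part of tissue makeup in these values was not tested.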

How the results depend on the processing

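No paired analysis was possible because the labels tie no exposed array to a sham array. The count of 0 adjusted calls among the members held under every scaling, background correction, filter, slide and array alternative run, and their number with an unadjusted p under 0.05 was 0 except within slide 1 (11), without sham replicate 6 (1) and without sham replicates 5 and 6 (4). Normexp left 16 members higher and 16 lower, and array weights 27 and 5. The 15 member pairs called ran from 14 to 17 except on slide 2 alone (1). The 6 calls against tissue scores were 5 to 8 under the other scalings, 3 centred within group, 1 centred within slide, 0 without the 2 farthest arrays and 1 without sham replicate 5, where the dermal matrix calls over all genes were 196, 33, 49 and 103, against 336. Slide 2 gave 0, as for all genes, since its 6 arrays allow few permutations, so it bears on no call. On slide 2, r of Ncf1 with Ncf4 was -0.47 and of F13a1 with mast cells -0.41.

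Signs of single genes changed, with no call lost. Under normexp with the 75th percentile the difference was -0.0035 for Itgam, -0.041 for Fcgr3a, -0.014 for Lilrb4 and -0.080 for F13a1, and with quantile normalization -0.013 for F13a1. Mrc1 was 0.024 under quantile normalization, 0.016 under median scaling and 0.096 under array weights, which gave Lgals3 -8.0e-05. Slide as a block gave F13a1 -0.079 and Lgals3 -0.0038. Within slide 1 it was 0.32 for Ncf1, 0.43 for Ctss, 0.038 for Coro1a and 0.68 for Mrc1. Within slide 2 it was 0.027 for Ctss, 0.13 for Coro1a and -0.016 for Lgals3. On slide 3 it was -0.0704 for Itgam, -0.34 for Cd14, -0.10 for Fcgr3a, -0.69 for Lilrb4, -1.25 for F13a1 and -0.083 for Lgals3. Within slide 4 it was -0.54 for Itgam, -0.23 for Cd14, -0.45 for Fcgr3a, 0.017 for Coro1a, -1.28 for Lilrb4, -1.25 for Trem2 and -0.077 for Lgals3. Without sham replicates 5 and 6 it was 0.029 for Ncf1, 0.12 for Ctss and 0.23 for Mrc1. Leaving out 1 array at a time gave -0.0824 to 0.435 for Lilrb4, -0.10 to 0.33 for F13a1, -0.0090 to 0.0282 for Lgals3 and -0.098 to 0.17 for Mrc1. The cause of these changes was not tested.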

Other observations

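Of further genes of the same cells, none passed an adjusted p of 0.05 in limma, as 0 of 20709 probes did. Of 12 growth factors, ligands and transcription factors of macrophages 8 were measured, 4 higher and 4 lower in exposed skin. Maf, a transcription factor of resident macrophages, averaged -1.02 ± 0.28 in exposed skin (n = 9, SD) and -0.73 ± 0.21 in sham skin (n = 8), a difference of -0.29 (unadjusted p = 0.0240, limma adjusted p = 0.983). Tgfb1 differed by 0.14. Of 30 further macrophage genes 22 were measured, 10 higher and 12 lower. Cx3cr1, the fractalkine receptor, had means of 0.10 ± 0.49 and 0.49 ± 0.57 in exposed and sham skin, a difference of -0.39 (-0.90 to 0.12), and Apoe differed by -0.08.

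Of 17 dendritic and Langerhans cell genes 9 were measured, 4 higher and 5 lower. Fscn1, the actin bundler of mature dendritic cells, which other skin cells also make, averaged 1.28 ± 0.23 in exposed skin (n = 9, SD) and 1.02 ± 0.23 in sham skin (n = 8), a difference of 0.27 (unadjusted p = 0.0253, limma adjusted p = 0.983). Batf3 differed by 0.11. Of 10 cytokine and activation genes 6 were measured, 2 higher and 4 lower. Nos2, the inducible nitric oxide synthase, detected above the background level in 5 exposed and 5 sham samples, differed by -0.47 (-0.98 to 0.04) and Il1b by -0.38 (-0.99 to 0.22). Their SDs were 0.18 and 0.31 on the exposed arrays and 0.74 and 0.86 on the sham arrays.

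The scores of tissue markers overlapped between the groups. The dermal matrix score averaged 0.03 ± 0.22 in exposed skin (n = 9, SD) and -0.03 ± 0.60 in sham skin (n = 8), the mast cell score 0.10 ± 0.64 and -0.12 ± 0.77, the hair follicle score 0.32 ± 1.48 and -0.36 ± 2.47, and the skeletal muscle score 0.71 ± 3.07 and -0.80 ± 2.99.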
